A study of Mus musculus with 2 samples.

Results

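A set of genes that mark the onset of the radial glia state (*Fabp7*, *Slc1a3*, *Aldoc*, *Ndrg2*, *Ptprz1*, *Tnc*, *Dct* and *Ttyh1*) was followed in 2 single-cell libraries of the embryonic mouse telencephalon. The 8 genes were taken by their symbols, each of which names 1 row among 28001 features of the first library and 32286 of the second. The first library pooled septal explants of 8 E11.5 PGKCre;Rosa26YFP and 4 E12.5 Dbx1Cre;Rosa26tdTomato embryos, each kind from 2 litters. The second came from the telencephalic vesicles of 3 WT embryos of 2 litters, labelled E12 and described in the methods as E11.5 to E12. Both are labelled as C57BL/6J and wild-type, so that the septal embryos carry Cre and reporter alleles that the label does not name. PGK drives Cre broadly, so that YFP marks E11.5 cells, whereas Dbx1Cre recombines only where Dbx1 is or was active, so that tdTomato marks a part of the E12.5 cells. Age and genotype therefore go together in the septal explants, and a cell without either reporter cannot be assigned to an embryo.

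When the neuroepithelium of the early telencephalon begins to make neurons, its apical progenitors (APs) turn into radial glia, which keep their apical contact and divide to give basal progenitors (BPs) and neurons. Radial glia switch on genes later shared with astrocytes, several of which respond to Notch signalling. *Fabp7* (also called Blbp) encodes a fatty acid binding protein, *Slc1a3* the glutamate transporter Glast, *Aldoc* a glycolytic aldolase and *Ndrg2* a cytoplasmic protein of astrocytes. *Ptprz1* encodes a receptor tyrosine phosphatase of the cell surface, *Tnc* the extracellular matrix protein tenascin C, and *Ttyh1* a membrane protein of neural progenitors. *Dct* encodes dopachrome tautomerase, an enzyme of melanin synthesis that is also transcribed in the dorsal forebrain.

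The genes lie on 7 chromosomes of GRCm38 (mm10). *Aldoc* spans chr11:78322968-78327781 on the plus strand with 6 annotated transcripts, *Ndrg2* chr14:51905271-51914158 on the minus strand with 13, and *Dct* chr14:118012790-118052244 on the minus strand with 4. *Dct* overlaps 1 annotated antisense gene and *Ttyh1* overlaps 2, whereas *Fabp7*, *Aldoc*, *Ndrg2* and *Ptprz1* overlap no other gene. Promoter windows of 300 bases were listed by RefSeq (GRCm38.p6) for all 8 genes. Those of *Aldoc*, *Ndrg2* and *Dct* are shown because these 3 genes had the strongest regional restriction in the septal explants, each for the outermost listed start. They cover chr11:78322823-78323122 on the plus strand, chr14:51913955-51914254 on the minus strand and chr14:118052197-118052496 on the minus strand. Capitals mark matches, on either strand and without overlap, to TTGGC (the half-site of nuclear factor I), TGGGAA (the core of the RBPJ motif), CATTGT (SOX factors) or TATAAA (the TATA box).
*Aldoc*: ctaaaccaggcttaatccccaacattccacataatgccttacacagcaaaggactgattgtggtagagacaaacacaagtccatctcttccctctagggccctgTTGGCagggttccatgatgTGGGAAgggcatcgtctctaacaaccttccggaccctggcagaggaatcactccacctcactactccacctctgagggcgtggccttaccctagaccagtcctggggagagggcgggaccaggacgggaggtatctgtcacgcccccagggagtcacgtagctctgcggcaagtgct
*Ndrg2*: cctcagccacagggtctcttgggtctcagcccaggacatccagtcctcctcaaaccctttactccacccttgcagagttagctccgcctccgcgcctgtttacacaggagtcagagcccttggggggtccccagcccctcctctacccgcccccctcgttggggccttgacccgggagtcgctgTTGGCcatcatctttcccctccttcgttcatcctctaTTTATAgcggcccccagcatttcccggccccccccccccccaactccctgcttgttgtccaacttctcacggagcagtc
*Dct*: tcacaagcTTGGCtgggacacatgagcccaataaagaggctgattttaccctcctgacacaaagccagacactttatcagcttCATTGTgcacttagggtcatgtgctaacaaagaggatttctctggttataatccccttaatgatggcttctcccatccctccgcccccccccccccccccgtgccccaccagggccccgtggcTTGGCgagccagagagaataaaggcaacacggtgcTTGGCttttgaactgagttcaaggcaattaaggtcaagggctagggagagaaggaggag
TTGGC occurred once in the *Aldoc* window, once in that of *Ndrg2* and 3 times in that of *Dct*, against at least once in 46.7% of all 32851 promoter windows. TGGGAA was found in the *Aldoc* window and in 25.6% of all windows, CATTGT in the *Dct* window and in 12.6%, and TATAAA in the *Ndrg2* window and in 13.6%. The octamer ATGCAAAT, read by POU factors, was in none of these 3 windows and in 1.74% of all. A match describes letters only.

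Each library stands for its condition alone, so no significance test or standard error was computed. Levels are counts of unique transcript molecules (UMIs), summed over the cells of a class and scaled to the summed total of that class as CPM, and are given with exact Poisson 95% intervals. Shares of cells are given with exact Clopper-Pearson 95% intervals, and folds with exact conditional binomial 95% intervals, all of which cover counting error only. Kept cells held a median of 12868 UMIs in the septal explants (5384 cells) and 9058 in the telencephalic vesicle (11758 cells). The kits and the counting software differed between the libraries, so that levels were not compared across them. The clusters were made without the 8 genes, and classes are named by their likeness to marker lists. The septal explants held 3206 APs and 1032 neurons, and the telencephalic vesicle 6542 APs and 1721 neurons.

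Which of the genes marked APs was asked first. In the septal explants *Fabp7* was at 1081 CPM (95% interval 1072 to 1090) in APs and 138 CPM (131 to 144) in neurons, a fold of 7.85 (7.49 to 8.24). *Slc1a3* was 17.5 times (12.3 to 25.8) higher in APs, at 42.4 against 2.43 CPM. *Aldoc* was at 48.0 CPM (46.1 to 49.9) in APs and 3.84 CPM (2.84 to 5.07) in neurons, a log2 fold of 3.64. The cell surface genes lay closer together, with *Ptprz1* 5.56 times (4.67 to 6.67) and *Ttyh1* 7.22 times (6.28 to 8.35) higher in APs. *Dct* was 7.39 times (5.35 to 10.5) higher, at 22 against 2.97 CPM. *Ndrg2* was the exception, with 31.6 CPM in APs and 20.2 CPM in neurons, a fold of 1.57 (1.37 to 1.79). *Tnc* had 12 UMIs in all APs and 0 in neurons, which is too few for a ratio. Of the 7 genes that reached 100 UMIs over both groups of cells, 6 were thus at least 2 times higher in APs, against 16.2% of 11720 genes. Their median fold was 7.39, and the median log2 fold of all genes was -0.03.

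The telencephalic vesicle gave the same 6 genes above 2-fold, with smaller folds for those of low level. *Fabp7* was at 584 CPM (580 to 588) in APs and 75.4 CPM (70.8 to 80.1) in neurons, a fold of 7.75 (7.29 to 8.25). *Slc1a3* was 12.8 times (9.90 to 16.7), *Ptprz1* 6.30 times (5.90 to 6.73) and *Ttyh1* 6.11 times (5.04 to 7.47) higher in APs. *Dct* was at 3.35 against 1.02 CPM (fold 3.27, 1.93 to 6.04), and *Aldoc* at 1.53 against 0.658 CPM (fold 2.33, 1.2 to 5.16). *Ndrg2* was lower in APs than in neurons, at 1.74 against 3.29 CPM (fold 0.530, 0.384 to 0.747), both low levels that are set against free RNA below. *Tnc* was at 0.327 CPM in APs with 43 UMIs, and was not counted. The 6 of 7 genes above 2-fold compare with 19.1% of 14516 genes, and the count fell to 4 when each cell was thinned to 3500 UMIs, where *Aldoc* and *Dct* had too few UMIs to be counted. It was also 4 with all barcodes kept, where *Aldoc* had a fold of 1.97 and *Dct* of 1.93.

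Free RNA in the droplets sets a floor for these levels. The 400 erythroid-like cells of the telencephalic vesicle, which should lack the genes, held *Fabp7* at 53.0 CPM, *Ptprz1* at 21.5 CPM and *Slc1a3* at 2.77 CPM. *Fabp7* was found in 22.2% (18.3 to 26.6) of them at a median of 5428.5 UMIs, near the 25.1% (23.1 to 27.2) of neurons at a median of 6868 UMIs, and after thinning in 14.3% and 14.5%, so that the neuronal share of *Fabp7* is not read as expression. By level, the 75.4 CPM (70.8 to 80.1) of neurons lay above the erythroid-like interval of 44.9 to 62.0 CPM. *Ptprz1* was found in 9.75% (7.03 to 13.1) of erythroid-like cells and 27.8% (25.7 to 30.0) of neurons, and after thinning in 6.44% and 15.5%. *Ndrg2* and *Dct* were each at 1.04 CPM (0.214 to 3.03) in these erythroid-like cells, and *Aldoc* had 0 UMIs, which allows up to 1.28 CPM. The 1.74 CPM of *Ndrg2* in APs lay within its interval, and the neuronal interval of 2.40 to 4.40 CPM overlapped it. The neuronal levels of *Dct* (1.02 CPM) and *Aldoc* (0.658 CPM) did not exceed these limits. Only 26 erythroid-like cells were found in the septal explants, at a median of 29045.5 UMIs, against 11497 in neurons. These 26 cells held *Fabp7* at 154 CPM (126 to 185), which is not below the 138 CPM of neurons. They held *Ttyh1* at 16.5 CPM (8.51 to 28.8), *Slc1a3* at 12.3 CPM (5.64 to 23.4), *Ptprz1* at 9.60 CPM (3.86 to 19.8) and *Dct* at 4.12 CPM (0.849 to 12). None of the neuronal levels of these genes lay above these intervals. The septal folds of these genes over neurons thus rest on neuronal levels that were not shown to exceed free RNA. *Slc1a3* in neurons, at 2.43 CPM (1.65 to 3.44), even lay below its interval, so that these few cells are an uncertain measure of free RNA. Erythroid-like cells were deeper than APs in the septal explants (AP median 14274.5 UMIs) and shallower in the telencephalic vesicle (AP median 11145.5 UMIs). Comparisons with their CPM, here and below, are thus not made at like depth, and the part of depth was not tested. *Aldoc* and *Ndrg2* had 0 UMIs in those 26 cells, which allows up to 5.06 CPM. The 20.2 CPM of *Ndrg2* in neurons lay above this limit, whereas the 3.84 CPM of *Aldoc* did not.

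Other cell types held some of the genes. In the telencephalic vesicle *Slc1a3* was at 162 CPM (153 to 172) in 494 mesenchyme-like cells, above every AP region, and found in 62.8% of them. *Tnc* was at 13 CPM (10.5 to 16.0) in the same cells and at most at 0.978 CPM in any AP class. A further 327 cells led by the choroid plexus genes *Ttr* and *Htr2c*, not counted as APs, held *Ndrg2* at 17.3 CPM (13.8 to 21.5), against 1.27 CPM in hem-like APs, and *Fabp7* at only 94.1 CPM (85.6 to 103). In the septal explants 44 cells led by macrophage and mesenchyme genes held *Slc1a3* at 119 CPM (96.5 to 146). Among septal neurons, *Ndrg2* reached 53.1 CPM in 1 of the Cajal-Retzius-like clusters, with 112 cells led by *Sncg*, and lay at 3.08 and 22.5 CPM in the 2 others.

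**Figure D1:**
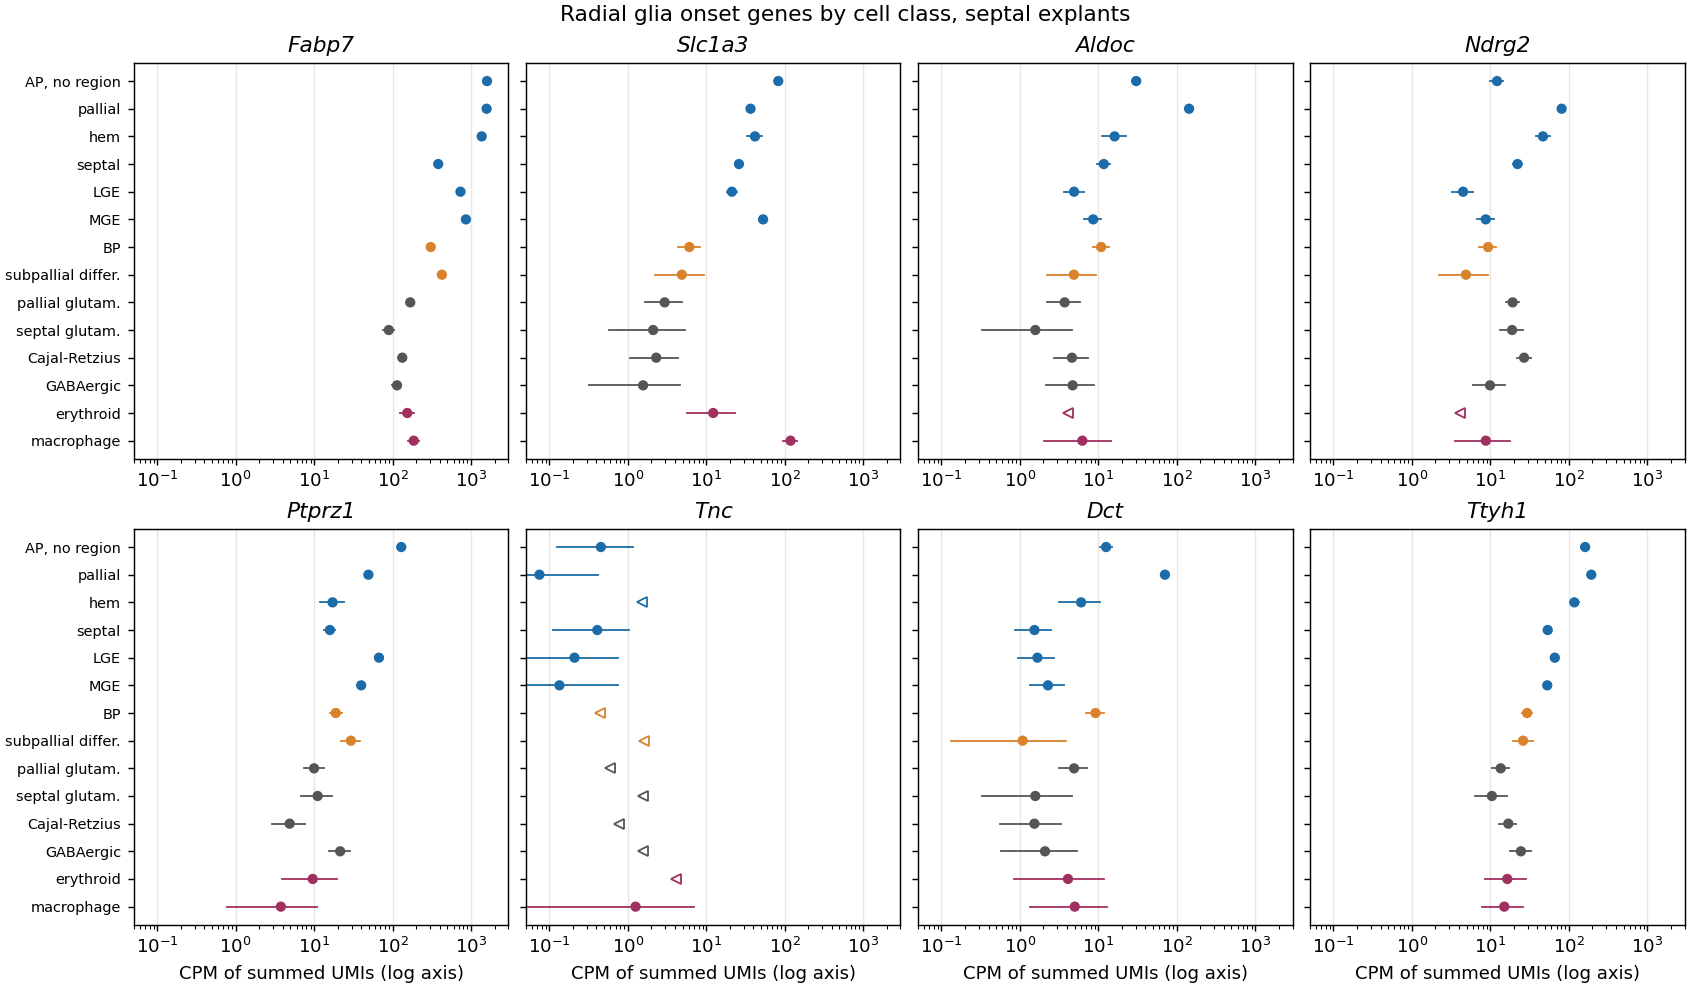
CPM of summed UMIs on a log axis (x) for each cell class (y) of the septal explants, with 1 panel per gene. Points are levels, lines are exact Poisson 95% intervals, open triangles mark the limit of 3 counts where a class has 0 UMIs, and colours separate APs (blue), intermediate cells (orange), neurons (grey) and other cells (purple). *Aldoc* and *Dct* stand out in pallial-like APs at 144 and 71.0 CPM, and *Tnc* has at most 4 UMIs in any AP class.

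**Figure D2:**
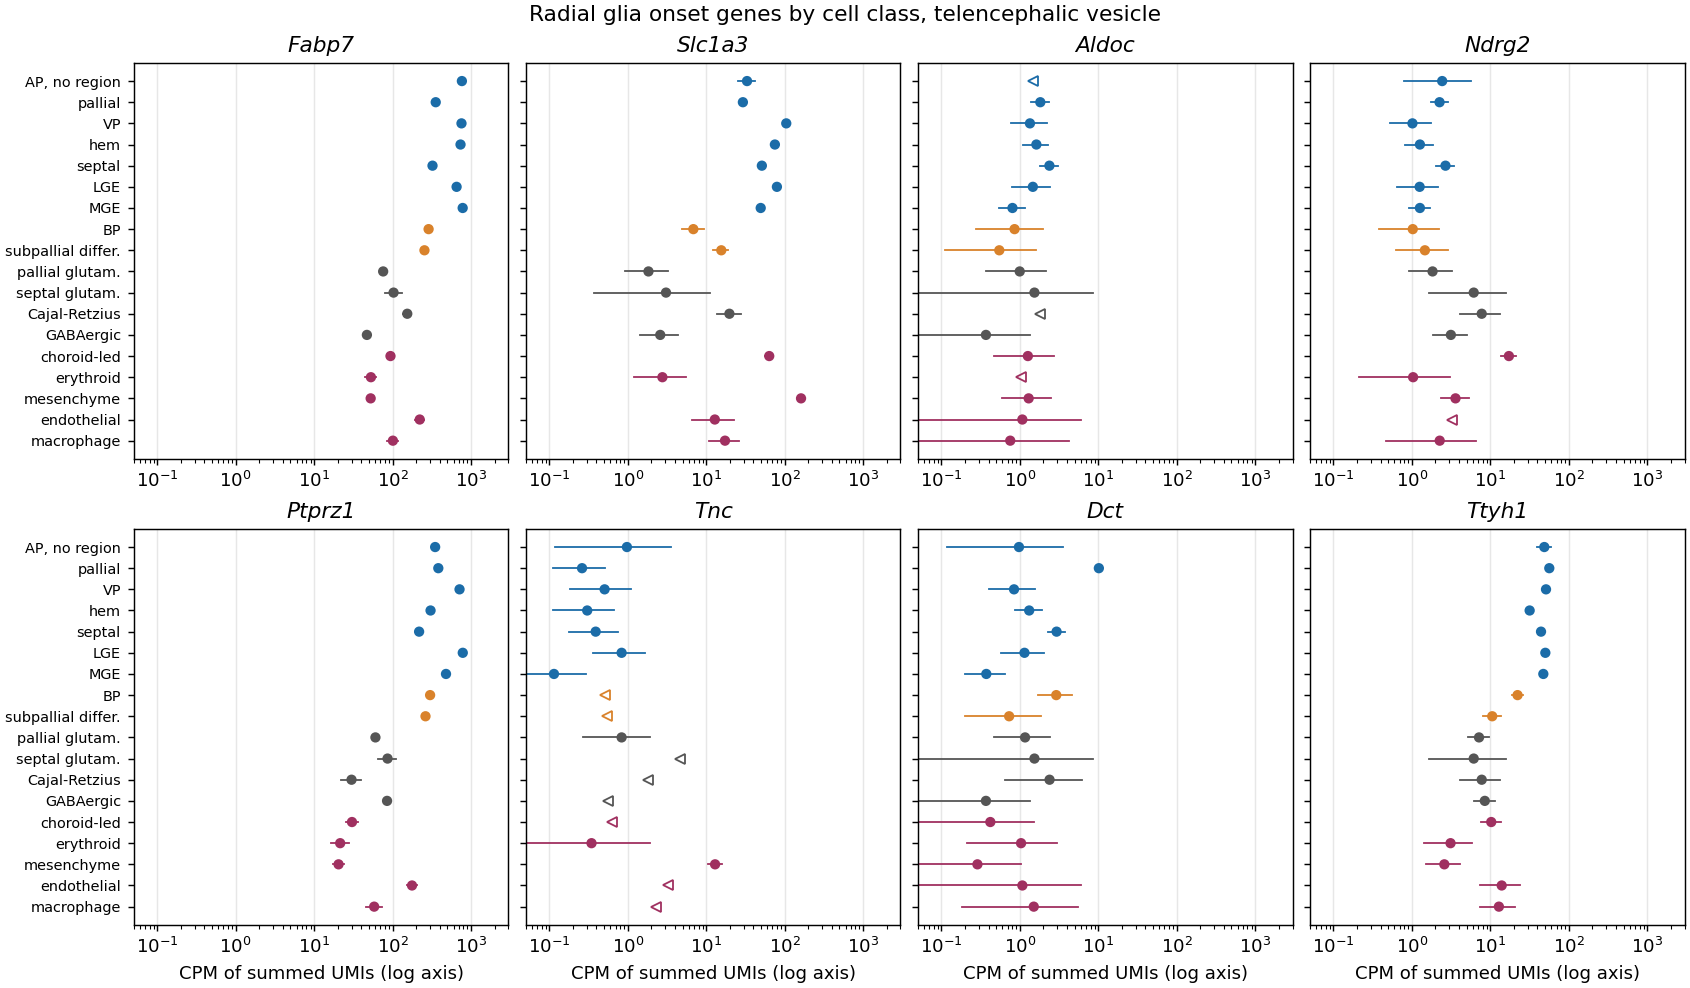
The same for the telencephalic vesicle, which also has ventral pallial (VP), choroid-led, mesenchyme-like and endothelial-like classes. *Aldoc* and *Ndrg2* stay below 3 CPM in every AP class, and *Slc1a3* and *Tnc* are highest in mesenchyme-like cells.

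Along the AP-to-neuron axis the genes fell at different points. Neural cells were ordered by the ratio of 11 neuronal to 9 AP genes, none of them a member, and cut into 10 bins of equal size. The fall of the AP genes along this axis is partly fixed by the ordering. It is given for orientation, and a member that falls before them is not thereby shown to be lost earlier. In the septal explants *Aldoc*, *Dct* and *Ndrg2* were highest in the first bin and fell below 50% of that level in bins 5, 4 and 4. *Fabp7*, *Slc1a3*, *Ptprz1* and *Ttyh1* did so in bin 7, and the summed AP genes in bin 8, where the BP genes peaked. *Slc1a3* dropped from 21.3 CPM in bin 7 to 2.13 CPM in bin 8, and *Ptprz1* from 33.7 to 7.46 CPM. *Ndrg2* alone came back, from 9.06 CPM in bin 8 to 20.3 CPM in bin 10. In the telencephalic vesicle *Fabp7*, *Slc1a3*, *Ptprz1* and *Ttyh1* all fell below 50% in bin 8, 1 bin before the AP genes. Within the pallial lineage of that library *Slc1a3* did so already in bin 5, while *Ttyh1* still held 49.9 CPM in bin 6 and dropped to 22 CPM in bin 7. In the subpallial lineage both were lost in bin 8.

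**Figure D3:**
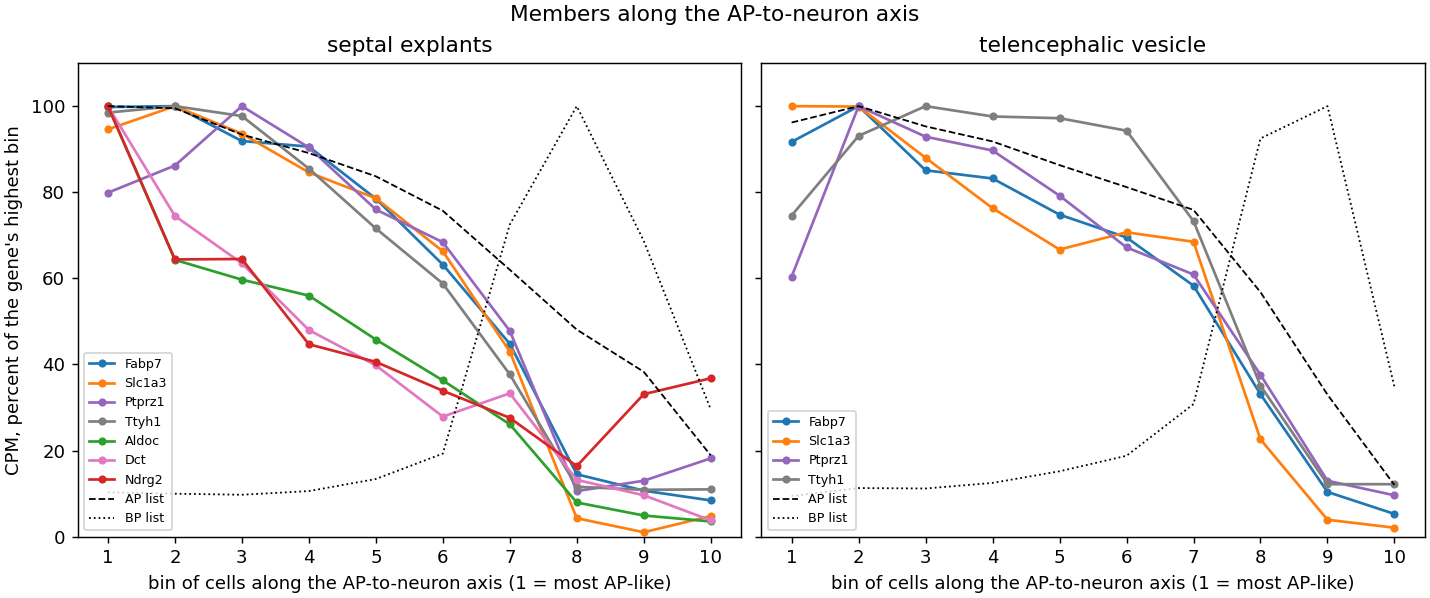
Level of each gene as a percentage of its highest bin (y) in 10 equal bins of neural cells along the AP-to-neuron axis (x), for the genes with enough UMIs in each library. Dashed and dotted lines are the summed AP and BP marker lists, of which the AP list also orders the cells. *Aldoc*, *Dct* and *Ndrg2* decline from bin 1 in the septal explants, whereas the other 4 genes stay above 50% of their highest level until bin 6. The bins mix AP regions.

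BPs of the septal explants held lower levels of the 7 counted members than APs, to different extents. They held *Fabp7* at 307 CPM (294 to 320), *Ttyh1* at 29.5 CPM (25.6 to 33.9), *Ptprz1* at 18.9 CPM (15.8 to 22.5) and *Aldoc* at 10.9 CPM (8.53 to 13.7). *Slc1a3* was at 6.11 CPM (4.39 to 8.29), against 42.4 CPM in APs and 12.3 CPM (5.64 to 23.4) in the erythroid-like cells. In the telencephalic vesicle *Ptprz1* was at 301 CPM (287 to 315) in BPs and 426 CPM (423 to 430) in APs, and *Fabp7* at 288 CPM (275 to 302) and 584 CPM. *Slc1a3* was at 6.87 CPM (4.91 to 9.36) in BPs, against 56.0 CPM (54.7 to 57.3) in APs.

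The position of APs was examined next. AP clusters of the septal explants were pallial-like (738 cells), hem-like (122), septal-like (706), LGE-like (608) and MGE-like (512), for the lateral and medial ganglionic eminences, and 520 APs matched no region. *Aldoc* was at 144 CPM (137 to 150) in pallial-like APs, 16.2 CPM (11.1 to 22.8) in hem-like, 11.8 CPM (9.72 to 14.1) in septal-like, 8.64 CPM (6.65 to 11) in MGE-like and 4.93 CPM (3.62 to 6.55) in LGE-like APs. Pallial-like APs thus lay 29.1 times (21.8 to 39.8) above LGE-like APs, and the LGE-like level did not differ from that of neurons beyond counting error. *Dct* was at 71.0 CPM (66.6 to 75.7) in pallial-like APs and 1.54 to 6.06 CPM in the 4 other regions, a fold of 46.3 (27.9 to 83.0) over septal-like APs. *Ndrg2* was at 81.3 CPM (76.5 to 86.2) in pallial-like, 47.0 CPM (37.9 to 57.5) in hem-like, 22.3 CPM (19.5 to 25.5) in septal-like, 8.77 CPM in MGE-like and 4.51 CPM in LGE-like APs, a fold of 18.0 (13.3 to 25.1). *Dct* in the 4 lower regions lay within its interval of 0.849 to 12 CPM in the erythroid-like cells. The LGE-like levels of *Aldoc* and *Ndrg2* lay below the 5.06 CPM that 0 UMIs in those cells allow. The lowest level in each of these folds is thus not separated from free RNA.

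These 3 genes also separated cells, not just sums. After thinning to 8000 UMIs, *Aldoc* was found in 47.7% of pallial-like APs and 4.24% of LGE-like APs, *Dct* in 38.9% and 1.02%, and *Ndrg2* in 37.6% and 4.07%. The unthinned shares of *Aldoc* were 62.2% (58.6 to 65.7) and 6.74% (4.88 to 9.04), and 4.36% (3.20 to 5.79) of neurons held it. The melanin genes *Tyr*, *Tyrp1*, *Pmel* and *Mlana* and the neural crest gene *Sox10* had 0 UMIs in the 147 APs with at least 3 *Dct* UMIs, and *Mitf* had 2. The 2679 APs without *Dct* held few as well, with *Tyr* at 0, *Tyrp1* at 1, *Pmel* at 11, *Mlana* at 1 and *Sox10* at 4 UMIs. Their absence from 147 cells therefore says little. The list of 8 pigment and neural crest genes made up 4.02 CPM (2.14 to 6.87) in those cells and 4.27 CPM (3.66 to 4.95) in the 2679 APs without *Dct*.

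The other members had broader regional patterns. *Ttyh1* was highest in pallial-like APs at 194 CPM (187 to 202), followed by hem-like at 118 CPM (104 to 134), and lay at 53.3 to 66.5 CPM in the 3 others. *Fabp7* ran from 1580 CPM (1559 to 1602) in pallial-like and 1369 CPM (1318 to 1421) in hem-like APs through 861 CPM (840 to 882) in MGE-like and 734 CPM (716 to 751) in LGE-like to 382 CPM (369 to 394) in septal-like APs. *Fabp7* was found in 98.9% of pallial-like and 78.5% (75.1 to 81.7) of septal-like APs after thinning. It was also found in 53.8% (33.4 to 73.4) of the 26 erythroid-like cells, so that detection in a cell is weak evidence of expression, although the intervals do not overlap. The septal-like level of 382 CPM lay above the 154 CPM of the erythroid-like cells. *Ptprz1* had another order, with 67.1 CPM (62.0 to 72.5) in LGE-like, 49.2 CPM (45.5 to 53.1) in pallial-like, 39.8 CPM (35.4 to 44.6) in MGE-like, 17.2 CPM (11.9 to 24) in hem-like and 15.9 CPM (13.5 to 18.6) in septal-like APs, where the hem-like and septal-like levels did not differ beyond counting error. *Slc1a3* was at 53.2 CPM (48.1 to 58.7) in MGE-like and 21.3 CPM (18.4 to 24.4) in LGE-like APs. The 520 APs without a region held *Fabp7* at 1599 CPM (1573 to 1626), *Slc1a3* at 83.0 CPM (77.1 to 89.2) and *Ptprz1* at 129 CPM (122 to 137), at or above every named region.

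All 7 genes with enough UMIs differed at least 2 times between their highest and lowest region, against 23.9% of 10819 genes, and their median fold was 4.23. The lowest levels of *Ptprz1* (15.9 CPM) and *Slc1a3* (21.3 CPM) also lay within their erythroid-like intervals of 3.86 to 19.8 and 5.64 to 23.4 CPM. Only for *Fabp7* and *Ttyh1* was the lowest region above the erythroid-like cells. The order of *Slc1a3* was not stable, since its fold ran from 1.30 to 5.01 over other clusterings and the highest region changed. Pallial-like APs were the highest for *Aldoc*, *Dct* and *Ttyh1* under each of the other clusterings, filters and scalings tried. They were so for *Ndrg2* too, except among eYFP>=3 cells alone (described with the reporter). The highest region of *Fabp7* was pallial-like or VP-like, and that of *Ptprz1* LGE-like, VP-like or pallial-like. Across the 17 AP clusters, log2(CPM + 1) of *Aldoc* followed that of *Ndrg2* (Pearson r = 0.87), *Dct* (r = 0.81) and *Ttyh1* (r = 0.75), and *Fabp7* followed *Ttyh1* (r = 0.84), whereas *Ndrg2* and *Ptprz1* had r = -0.24. These clusters share a library and differ in depth, and the values are a description.

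In the telencephalic vesicle the regions were pallial-like (1232 cells), VP-like (662), hem-like (820), septal-like (988), LGE-like (280) and MGE-like (2283). *Dct* was again highest in pallial-like APs, at 10.2 CPM (9.05 to 11.3), against 2.95 CPM (2.29 to 3.74) in septal-like and 0.375 CPM (0.200 to 0.641) in MGE-like APs, a fold of 27.1 (15.6 to 51.4). Both lower levels lay within the 0.214 to 3.03 CPM interval of the erythroid-like cells. *Aldoc* was at 0.808 to 2.39 CPM and *Ndrg2* at 1.02 to 2.69 CPM in the 6 regions, and pallial-like APs did not exceed septal-like APs in either, with folds of 0.768 (0.520 to 1.14) and 0.840 (0.587 to 1.2). *Aldoc* was found in 2.84% (2.45 to 3.28) of APs at a median of 11145.5 UMIs, against 0 of 400 erythroid-like cells, which allows a level of up to 1.28 CPM. After thinning it was in 0.358% (0.227 to 0.536) of APs and 0% (0 to 1.03) of erythroid-like cells, which does not separate them at this depth. *Ttyh1* lay between 31.8 CPM (29.4 to 34.4) in hem-like and 56.6 CPM (54.0 to 59.4) in pallial-like APs.

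Pallial-like APs were not the highest for *Fabp7* and *Slc1a3* in this library, where VP-like APs were counted apart. *Fabp7* was at 783 CPM (774 to 792) in MGE-like, 756 CPM (741 to 772) in VP-like, 735 CPM (723 to 747) in hem-like and 655 CPM (639 to 672) in LGE-like APs, and at 355 CPM (349 to 362) in pallial-like and 323 CPM (316 to 331) in septal-like APs. *Slc1a3* was at 105 CPM (99.5 to 111) in VP-like and 29.4 CPM (27.5 to 31.4) in pallial-like APs, a fold of 3.58 (3.29 to 3.91). *Ptprz1* was at 785 CPM (767 to 803) in LGE-like and 714 CPM (699 to 729) in VP-like APs, and at 218 CPM (212 to 224) in septal-like APs. The lowest region of *Fabp7* in this library was septal-like here but pallial-like or LGE-like under 4 of the other clusterings and filters, and the highest was MGE-like or VP-like. Septal-like APs remained the lowest for *Ptprz1* here, whereas in the septal explants hem-like APs were the lowest after thinning and among eYFP>=3 cells. Of the 7 genes, 6 differed at least 2 times between regions, against 26.8% of 14091 genes, with a median fold of 2.95. The regional levels of *Ndrg2*, from 1.02 to 2.69 CPM, all lay within its erythroid-like interval of 0.214 to 3.03 CPM. The lowest level of *Aldoc*, 0.808 CPM, lay under the 1.28 CPM that 0 UMIs in the erythroid-like cells allow. The folds of these 2 genes are thus not separated from free RNA.

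Pallial-like APs of the telencephalic vesicle were not uniform. In 1 of their 3 clusters, with 246 cells and *Adamts18* and *Ptx3* among its leading genes, *Fabp7* was at 1118 CPM and *Ptprz1* at 1110 CPM, while *Dct* was at 0.259 CPM. In the 2 others, with 503 and 483 cells, *Fabp7* was at 392 and 182 CPM, *Ptprz1* at 193 and 314 CPM, and *Dct* at 12.9 and 11 CPM. The cluster of 246 cells was named by a narrow margin, with a mean z score of 0.82 for the pallial and 0.75 for the VP list. VP-like APs held *Fabp7* at 756 CPM and *Dct* at 0.846 CPM. *Dct* and *Fabp7* were thus high in different clusters named pallial-like here, 1 of them close to VP-like. Both were high in the pallial-like clusters of the septal explants.

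The genes whose levels most resembled those of a member over all clusters were found for the 4 members with at least 500 UMIs in both libraries, among 8905 genes. For *Fabp7* these were *Ttyh1* (r = 0.94 over 31 septal and 0.84 over 28 telencephalic clusters), *Nr2e1* (0.88 and 0.88) and *Dnph1* (0.88 and 0.85). *Ttyh1* was most like *Nr2e1* (0.88 and 0.90), *Fgfbp3* (0.88 and 0.88) and *Fabp7*. *Slc1a3* was most like *Rest* (0.88 and 0.90), *Tcf7l1* (0.88 and 0.88) and *Yap1* (0.87 and 0.88). *Ptprz1* was most like *Id4* (0.88 and 0.87), *Slc35f1* (0.85 and 0.86) and *Sox21* (0.85 and 0.84). *Aldoc*, *Ndrg2*, *Tnc* and *Dct* did not reach the UMI minimum in both libraries.

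The reporter allowed APs of E11.5 embryos to be set against the rest of the septal pool. Among all kept cells 1621 held 0 eYFP UMIs, 458 held 1 and 244 held 2, and the counts rose again to 311 cells at 4 UMIs. Cells with at least 3 eYFP UMIs were taken as E11.5 (1859 APs, median 14960 UMIs), and cells with 0 as a mixture enriched for E12.5 (993 APs, median 13319 UMIs). Only 38 of the 403 cells with tdTomato held 3 or more eYFP UMIs.

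Summed over all APs, *Aldoc*, *Ndrg2* and *Dct* were lower in eYFP>=3 than in eYFP=0 cells. Without 2 pallial-like clusters described below, the folds of eYFP=0 over eYFP>=3 APs were only 1.37, 0.947 and 0.542. *Aldoc* was at 18.3 CPM (16.9 to 19.9) in eYFP>=3 APs and 96.8 CPM (91.8 to 102) in eYFP=0 APs, 5.28 times (4.79 to 5.83) higher in the latter. *Ndrg2* was at 17.7 CPM (16.2 to 19.2) and 55.2 CPM (51.5 to 59.2), 3.12 times (2.80 to 3.49) higher. *Dct* was at 14.3 CPM (13 to 15.7) and 34.2 CPM (31.3 to 37.3), 2.38 times (2.09 to 2.72) higher. By the size of this fold, the 3 genes ranked 4, 10 and 15 among 10917 genes. *Ttyh1* (1.27 times, 1.2 to 1.35), *Fabp7* (1.22 times, 1.2 to 1.25), *Slc1a3* (1.14 times, 1.04 to 1.26) and *Ptprz1* (1.12 times, 1.03 to 1.21) differed little. *Tnc* had 4 UMIs in eYFP>=3 and 7 in eYFP=0 APs. In all, 3 of 7 genes were at least 1.5 times lower in eYFP>=3 APs, against 0.934% of genes, and 0 were at least 1.5 times higher, against 1.64%.

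Cells with few reporter UMIs and cells with tdTomato were read beside these. In the 354 APs with 1 or 2 eYFP UMIs *Aldoc* was at 85.7 CPM (77.9 to 94.0), *Ndrg2* at 47.8 CPM (42.1 to 54.1) and *Dct* at 32.7 CPM (28.0 to 38.0), close to the eYFP=0 APs. In the 156 APs with at least 1 tdTomato UMI and 0 eYFP UMIs, taken as E12.5, *Aldoc* was at 89.0 CPM (77.4 to 102), *Ndrg2* at 49.7 CPM (41.2 to 59.5) and *Dct* at 30.5 CPM (23.9 to 38.4). In the same cells *Ptprz1* was at 41.8 CPM (34.0 to 50.8), below the 55.4 CPM (52.8 to 58.1) of eYFP>=3 APs, and *Slc1a3* at 39.7 CPM (32.1 to 48.5), against 39.8 CPM (37.6 to 42.1).

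**Figure D4:**
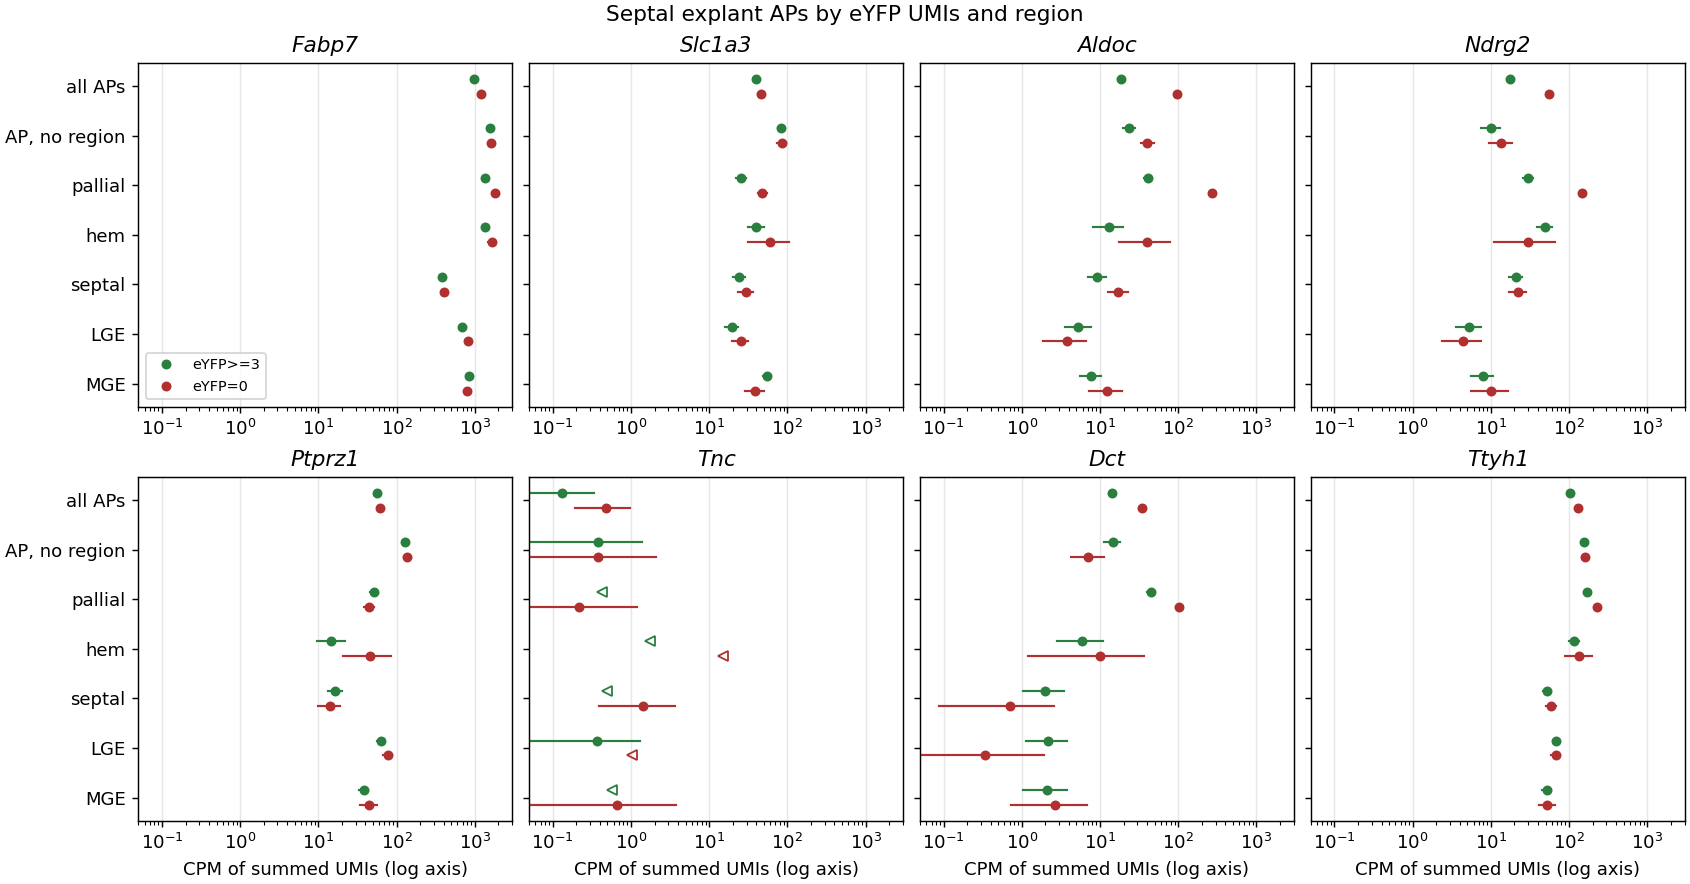
CPM of summed UMIs on a log axis (x) in eYFP>=3 (green) and eYFP=0 (red) APs of the septal explants, over all APs and by region (y). Points are levels, lines exact Poisson 95% intervals, and open triangles the limit of 3 counts where a group has 0 UMIs. In pallial-like APs *Aldoc* is at 41.3 and 268 CPM and *Ndrg2* at 30.0 and 148 CPM, whereas in LGE-like APs the intervals of both genes overlap.

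In pallial-like APs, *Aldoc* was at 268 CPM (253 to 283) in 289 eYFP=0 and 41.3 CPM (36.8 to 46.3) in 360 eYFP>=3 cells, a fold of 6.47 (5.70 to 7.37). *Ndrg2* was 4.93 times (4.22 to 5.78), *Dct* 2.29 times (1.98 to 2.65) and *Slc1a3* 1.86 times (1.52 to 2.27) higher in eYFP=0 cells, so that 4 of 7 genes passed 1.5-fold, against 3.12% of 7893 genes. *Fabp7* was 1.34 times (1.30 to 1.38) and *Ttyh1* 1.33 times (1.22 to 1.45) higher, and *Ptprz1* had a fold of 0.877 (0.735 to 1.04). After thinning, *Aldoc* was found in 73.9% of eYFP=0 and 21.6% of eYFP>=3 pallial-like APs, and *Ndrg2* in 59.6% and 17.3%. The 46 pallial-like APs with tdTomato and 0 eYFP UMIs held *Aldoc* at 256 CPM (222 to 294) and *Ndrg2* at 128 CPM (104 to 156). Of the 289 eYFP=0 pallial-like APs, 221 lay in 2 clusters that held only 6 eYFP>=3 cells, so that these folds largely set different clusters against each other. Without the 2 clusters, 2 of 7 genes passed 1.5-fold, against 107 of 6906 genes.

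The other regions were examined in the same way. *Aldoc* was 1.86 times (1.24 to 2.78) higher in eYFP=0 than in eYFP>=3 septal-like APs, at 17.1 and 9.21 CPM, and 1.71 times (1.31 to 2.23) higher in APs without a region. In LGE-like (fold 0.710, 0.320 to 1.46) and MGE-like APs (1.58, 0.851 to 2.81) its interval held 1. The fold of *Ndrg2* was 1.07 (0.773 to 1.45) in septal-like, 0.839 (0.401 to 1.67) in LGE-like and 1.28 (0.659 to 2.37) in MGE-like APs. *Dct* had a fold of 0.490 (0.280 to 0.819) in APs without a region. Only 15 hem-like APs had 0 eYFP UMIs, and in them *Aldoc* had a fold of 3.1 (1.19 to 7.22) from 8 UMIs and *Ptprz1* of 3.07 (1.26 to 6.79) from 9 UMIs.

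The reporter groups were unevenly spread over the clusters. Pallial-like APs fell into 4 clusters, and 2 of them, with 292 cells together, held 6 eYFP>=3 cells (2.05%), whereas the 2 others, with 446 cells, held 354 (79.4%). The 2 clusters were singled out for this share after it was seen, so that leaving them out removes mostly eYFP=0 cells and the values without them are a description. The 2 clusters held *Aldoc* at 324 CPM (308 to 341), *Ndrg2* at 171 CPM (160 to 184) and *Dct* at 118 CPM (108 to 128), against 44.6 CPM (40.3 to 49.3), 31.8 CPM (28.2 to 35.8) and 45.6 CPM (41.2 to 50.3) in the 2 others. *Slc1a3* was at 55.6 and 26.5 CPM, and *Fabp7* at 1830 and 1443 CPM. Without the 2 clusters, the fold over all APs was 1.37 (1.18 to 1.59) for *Aldoc*, 0.947 (0.797 to 1.12) for *Ndrg2* and 0.542 (0.425 to 0.684) for *Dct*, so that 0 genes were at least 1.5 times lower in eYFP>=3 APs, against 0.546% of 10804 genes, and 1 (*Dct*) was at least 1.5 times higher, against 1.51%. With the UMIs expected from each cluster as the reference, the ratio of eYFP=0 to eYFP>=3 APs was 1.83 for *Aldoc*, 1.26 for *Ndrg2* and 1.03 for *Dct*. Within the 2 remaining pallial-like clusters, 68 eYFP=0 and 354 eYFP>=3 cells still differed in *Aldoc* (1.80 times, 1.39 to 2.32) and *Ndrg2* (1.60 times, 1.16 to 2.18) but not beyond counting error in *Dct* (1.13 times, 0.841 to 1.5).

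The 2 clusters also differed from the other pallial-like APs in regional genes. The 11 hem genes summed to 225 CPM (212 to 239) in them and 628 CPM (611 to 645) in the others, the 9 septal genes to 446 CPM (427 to 466) and 767 CPM (748 to 786), and the 9 pallial genes to 2239 CPM (2196 to 2282) and 1657 CPM (1630 to 1684). LGE genes summed to 284 CPM (269 to 300) and 145 CPM (137 to 153), VP genes to 358 CPM (341 to 375) and 286 CPM (275 to 298). MGE genes were low in both, at 8.70 and 9.99 CPM. AP genes summed to 2068 CPM (2027 to 2109) and 2492 CPM (2458 to 2525). BP genes summed to 459 CPM (440 to 479) and 263 CPM (252 to 274), and erythroid genes to 568 CPM (547 to 590) and 525 CPM (510 to 541). The median depth was 14146.5 and 17852.5 UMIs. Among all APs, BP genes summed to 361 CPM (352 to 371) in eYFP=0 and 268 CPM (263 to 274) in eYFP>=3 cells, neuronal genes to 789 and 804 CPM, erythroid genes to 563 and 550 CPM and mesenchyme genes to 41.1 and 48.3 CPM, and their part in the result was not tested. A neuron cluster of 98 cells led by *Neurod6* likewise held 1 eYFP>=3 cell (1.02%). Age, genotype and the position of the cells within the explant cannot be told apart here.

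**Figure D5:**
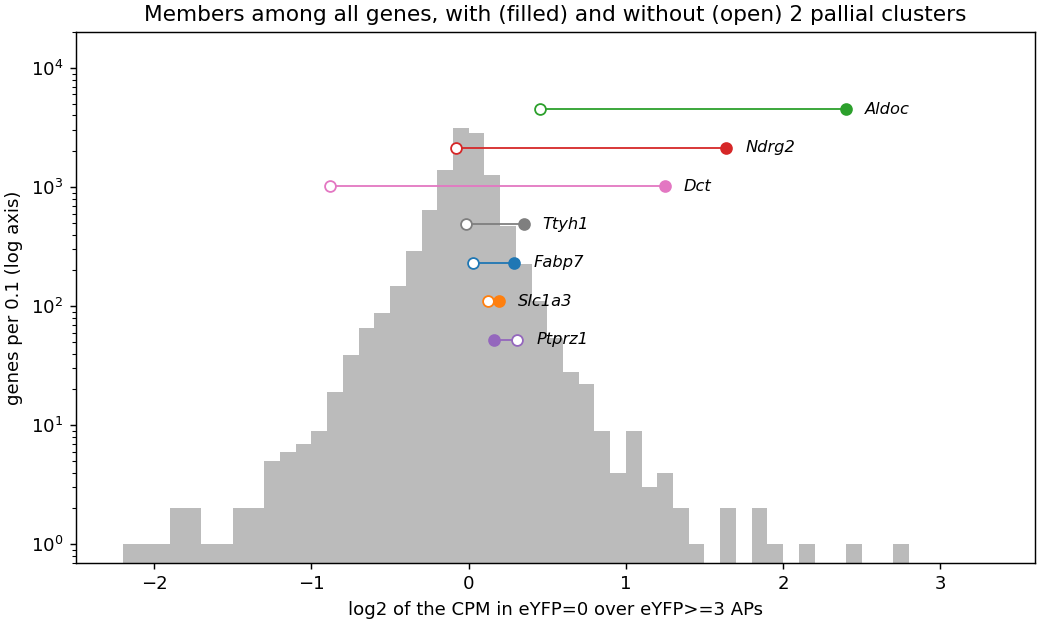
Number of genes (y, log axis) by the log2 of their CPM in eYFP=0 over eYFP>=3 APs (x), for 10917 genes in grey. Filled points are the 7 members with at least 100 UMIs over all APs and open points the same genes without the 2 pallial-like clusters, at heights chosen for legibility. *Aldoc*, *Ndrg2* and *Dct* lie at 2.40, 1.64 and 1.25 with these clusters.

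The regional pattern was already present in E11.5 cells. Among eYFP>=3 APs alone, *Dct* was at 45.1 CPM in pallial-like and 1.97 CPM in septal-like APs (22.9 times, 12.9 to 44.7), and *Aldoc* at 41.3 CPM in pallial-like and 5.28 CPM in LGE-like APs (7.83 times, 5.34 to 11.9). The septal-like level of *Dct* again lay within the interval of the erythroid-like cells. *Ndrg2* was highest in hem-like APs, at 48.8 CPM (38.9 to 60.5), ahead of 30.0 CPM (26.1 to 34.3) in pallial-like APs, and 9.24 times (5.99 to 14.6) above LGE-like APs. All 7 genes passed 2-fold between regions in these cells, against 21.9% of 9950 genes. The lowest levels of *Ptprz1* (14.7 CPM) and *Slc1a3* (19.5 CPM) again lay within their erythroid-like intervals. The AP level of *Ndrg2* was no longer above that of neurons, with a fold of 0.991.

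Of 24 further genes known from radial glia and astrocytes, 18 reached 100 UMIs in this comparison, and 5 were at least 1.5 times higher in eYFP=0 APs and 0 lower, with a median fold of 1.21. Among them were the transcription factors *Nfix* (2.11 times, 1.92 to 2.32) and *Nfib* (1.64 times, 1.57 to 1.71), *Hopx* (1.52 times, 1.05 to 2.20) and *Gpm6b* (1.51 times, 1.41 to 1.61). *Nfia* was 1.26 times (1.19 to 1.34) higher. *Fabp5*, a relative of *Fabp7*, went the other way, at 674 CPM in eYFP=0 and 905 CPM in eYFP>=3 APs (fold 0.745, 0.728 to 0.762). Of 8 early neuroepithelial genes, 7 were counted, 1 of which, *Hmga1*, was 1.55 times (1.35 to 1.79) higher in eYFP=0 APs and 0 were 1.5 times lower, with a median fold of 0.890. *Lin28b* had a fold of 0.700 (0.498 to 0.970) and *Hmga2* of 0.815 (0.783 to 0.847). Over all genes the median was 0.993.

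Whether the members went together from cell to cell was asked within clusters, where the third of APs with the most *Fabp7* was set against the third with the least (chosen after the first results were seen). In the septal explants *Aldoc* was 1.89 times (1.71 to 2.09), *Ptprz1* 1.82 times (1.65 to 2), *Ttyh1* 1.69 times (1.59 to 1.81), *Ndrg2* 1.61 times (1.42 to 1.82), *Slc1a3* 1.55 times (1.39 to 1.73) and *Dct* 1.36 times (1.17 to 1.59) higher in *Fabp7*-high cells, at median depths of 13875.5 and 14169 UMIs. Of these 6, 5 passed 1.5-fold, against 1.07% of 10424 genes. Among eYFP>=3 APs alone the folds were 2.12 for *Aldoc*, 1.88 for *Ptprz1*, 1.88 for *Ttyh1*, 1.47 for *Slc1a3*, 1.43 for *Ndrg2* and 1.36 for *Dct*. In the telencephalic vesicle *Dct* was 2.88 times (2.21 to 3.80), *Ttyh1* 2.09 times (1.95 to 2.24), *Ndrg2* 1.61 times (1.14 to 2.29), *Ptprz1* 1.36 times (1.33 to 1.39) and *Aldoc* 1.31 times (0.906 to 1.91) higher, so that 3 of 6 passed, against 1.5% of 13246 genes. *Slc1a3* did not follow *Fabp7* there, at 55.6 and 53.7 CPM (1.04 times, 0.977 to 1.10). Both *Ndrg2* levels there, 2.26 and 1.4 CPM, lay within its erythroid-like interval of 0.214 to 3.03 CPM, as did the 1.92 CPM of *Dct* in *Fabp7*-low cells.

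The cell cycle was read by dividing APs within clusters into the third with the highest and the third with the lowest share of G2/M gene UMIs. The median depths of the G2/M-high and G2/M-low cells were 15599.5 and 13141 UMIs in the septal explants and 12760 and 8933 UMIs in the telencephalic vesicle, and the part of depth was not tested. In the septal explants the folds of the 7 counted genes ran from 0.860 for *Slc1a3* to 1.24 for *Dct*. *Fabp7* had a fold of 0.964 (0.945 to 0.984) in the septal explants and 0.961 (0.943 to 0.979) in the telencephalic vesicle. *Ttyh1* was 1.12 times (1.05 to 1.2) and 1.24 times (1.15 to 1.33) higher in G2/M-high cells. *Ptprz1* was 1.18 times (1.15 to 1.21) higher in the telencephalic vesicle and at 0.970 (0.886 to 1.06) in the septal explants. *Slc1a3* was at 39.0 CPM in G2/M-high and 45.4 CPM in G2/M-low cells of the septal explants, and at 56.3 and 56.4 CPM in the telencephalic vesicle. *Ndrg2* was lower in G2/M-high cells of the telencephalic vesicle (0.554, 0.374 to 0.815) but not of the septal explants (0.991, 0.880 to 1.12). Its telencephalic levels, 1.21 and 2.18 CPM, both lay within the erythroid-like interval of 0.214 to 3.03 CPM.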

How the data were processed

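Single cells of 2 libraries were counted with 10x Genomics droplet kits, v2 for the septal explants (about 10000 cells loaded) and v3.1 for the telencephalic vesicle (about 20000). The authors deposited raw counts of UMIs per gene and barcode, made with Cell Ranger 2.1.1 and 7.1.0 on mm10 per the submitters' processing notes, with reporter sequences added. Whether intronic reads were counted is not given in the sources used here.

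From these, cells within 3 scaled MAD of the median mitochondrial share were kept (5444 of 5827 and 12471 of 14283 barcodes), and Scrublet removed 60 (1.10%) and 713 (5.72%) as doublets. 1 barcode sequence was shared by both libraries. After scaling each cell to 10000 and taking logarithms, 2000 variable genes, without the members, both companion lists, reporters, sex-linked and cell cycle genes, gave 30 principal components, 15 neighbours and Leiden clusters at a resolution of 1.5 (scanpy 1.11.5, igraph 0.11.9, numpy 2.4.6, scipy 1.17.1). A cluster took the name of a list with at least 3 markers found in at least 5% of its cells at 1.5 times the mean CPM of the other clusters, and a region at a z score of at least 0.5. After the clusters were seen, GABAergic-like clusters with a median AP-to-neuron axis under 2 were set apart as subpallial differentiating cells (196 and 603 cells) and a choroid-led cluster (327 cells) was taken out of the APs. Clusters with 324 and 967 cells had no name. The 2 unnamed clusters of the telencephalic vesicle had medians of 971 and 1094 UMIs. Those of the septal explants had medians of 5180.5 (122 cells) and 14198 UMIs (202 cells). The deeper septal one lay on the AP side of the axis (-1.70), with *Fabp7* at 1286 CPM and *Dct* at 39.7 CPM. Of its cells 68.3% were eYFP>=3, and they are not part of the AP, regional or reporter values.

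Counts per class were summed and given as CPM. A gene was counted from 100 UMIs over both groups, regions needed 50 cells, and a sum of 0 was set to 3 counts for folds. Cells were thinned to 8000 and 3500 UMIs, leaving out 511 and 1145 shallower cells. The named genes were the 8 members, up to 6 genes each way of the 2 companion lists (1 of which is not reported here), and the 3 genes most like a member by the summed ranks of Pearson's r. The counting was tested on simulated data. The members and lists were chosen with earlier results of these data known. No p-values were computed, since each condition has 1 library. Alternatives changed the clustering resolution, the random seed, the doublet, mitochondrial and cell cycle filters, the depth, the averaging and the reporter threshold.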

Additional observations from a re-analysis of the deposited data

Results flagged for a closer look

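Some regional differences ran in opposite directions in the 2 libraries, with counting intervals on either side of 1. The difference between the libraries was not tested, since each is a single library. *Fabp7* in pallial-like APs relative to MGE-like APs was at a fold of 1.84 in the septal library and 0.454 in the telencephalic one. Relative to LGE-like APs it was 2.15 and 0.542, and relative to hem-like APs 1.15 and 0.483. *Slc1a3* in pallial-like APs was at 1.40 and 0.573 times the septal-like level, and at 1.73 and 0.368 times the LGE-like level. *Ptprz1* in pallial-like APs was at 1.24 and 0.798 times the MGE-like level. The part of the kit, the age of the embryos, the dissected tissue and the naming of the classes in these values was not tested. In the main clustering VP-like APs were a class of their own only in the telencephalic vesicle. The septal regional order of *Slc1a3* was not stable over other clusterings.

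Added sequences outside the comparisons also gave counts. IRESCRE had 26 UMIs in 24 cells of the septal explants, and LacZ had 11 UMIs in 9 cells of the telencephalic vesicle. The embryos of the latter are described as WT, and the origin of these few LacZ counts was not tested.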

How the results depend on the processing

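The counts of members above 2-fold in APs or between regions stayed within 1.5 times of the reported ones under every alternative run, from 4 to 6 for APs against neurons in the telencephalic vesicle, 4 to 7 for its regions, and 6 to 7 for the regions of the septal explants. The count of 3 members lower in eYFP>=3 APs was 3 under 11 alternatives. It was 1 (*Aldoc*) when UMIs expected within each cluster were the reference. It was 0, against 0.546% of 10804 genes, without the 2 pallial-like clusters poor in eYFP>=3 cells (chosen after seeing the data). There 1 member (*Dct*) was at least 1.5 times higher, against 1.51% of genes. Without those clusters the ratio of eYFP>=3 to eYFP=0 APs turned to 1.06 for *Ndrg2*, 1.85 for *Dct* and 1.01 for *Ttyh1*. With the eYFP=0 APs that held tdTomato as the reference, it turned to 1.33 for *Ptprz1* and 1 for *Slc1a3*. In eYFP>=3 cells alone, *Ndrg2* in APs over neurons was 0.991. A filter of 1 or 500 UMIs in place of 100 gave 14.7% and 0.489% of genes lower in eYFP>=3 APs, and 7.22% and 0.299% higher. For regions it gave 38.8% and 12.4% in the septal explants, and 41.7% and 16.5% in the telencephalic vesicle. The spread between embryos or litters cannot be seen in these libraries. *Tnc* had too few UMIs in APs to be counted in either library. No paired analysis was possible because each group is 1 library.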
